A study of Mus musculus with 12 samples.

Results

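Brown adipose tissue (BAT) of KI-HFD mice was compared with BAT of WT-NC mice, gene by gene, by poly-A RNA sequencing. The comparison rests on 6 of the 12 libraries of the series, picked by their titles, with 3 libraries in each group. The other libraries come from inguinal white fat and serve here only to check the tissue label and the clock genes. KI-HFD mice carry the genotype written Adv-CGRPalpha+/- and ate a high-fat diet, while WT-NC mice are wild type and ate normal chow. Every animal is on the C57BL/6 strain. Genotype and diet change together, so their parts in a difference between the groups cannot be told apart. The part "Adv" of the genotype name, the driver of the allele, the age and sex of the mice and the length of feeding are not given in the sources used here. The series is about sensory neurons that make the calcitonin gene-related peptide (CGRP) and their part in heat production and diet-induced weight gain.

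Brown fat burns fatty acids in mitochondria that the uncoupling protein Ucp1 makes leaky, so that respiration yields heat in place of ATP. Sympathetic nerves switch this on through beta-adrenergic receptors and cAMP, which release fatty acids from droplets and raise the genes for their oxidation. Sensory fibres that carry CGRP also end in fat, with their cell bodies in ganglia outside it. When fat expands in overfed mice, monocytes drawn in by CC chemokines commonly become macrophages that take up lipid, and matrix is laid down.

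The 6 libraries held 20.4 M, 20.9 M and 17.7 M gene counts in KI-HFD mice and 17.4 M, 21.9 M and 22.6 M in WT-NC mice, where M stands for mega. Levels are given in CPM, counts relative to the library total after TMM scaling, which corrects these totals for differences in composition. Ucp1 had 5750 to 12600 CPM over the 6 BAT libraries and 2.72 to 27.7 CPM over the 6 libraries of white fat, and 6 of 7 brown fat markers did not overlap between the depots, Lhx8 being the exception. Neither the genotype nor the diet could be checked in the tissue, so the direction of every difference below rests on the labels alone. Calca, which encodes CGRP-alpha, had 1, 4 and 8 counts in KI-HFD libraries and 0, 2 and 9 in WT-NC libraries, and Calcb had 0 in each. Log2 levels of 2 libraries correlated at 0.941 to 0.969 within KI-HFD, at 0.906 to 0.954 within WT-NC and at 0.916 to 0.955 between the groups, so the groups did not form separate clusters. Skeletal muscle transcripts varied widely inside both groups. The 20 listed muscle genes summed to 19400, 14000 and 2740 CPM in KI-HFD libraries and to 23500, 79600 and 717 CPM in WT-NC libraries, and the part of these fibres in other differences was not tested.

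Each library carries a number in the deposited data. KI-HFD replicate 1 and WT-NC replicate 3 are numbered in the 500s, and the other 4 BAT libraries in the 200s. What the number stands for is not given in the sources used here. Reads with no feature made up 4.99% and 5.3% in the BAT libraries of the 500s and 7.64% to 11.6% in those of the 200s. Several clock genes also followed the number in both groups. Arntl (Bmal1), the activator at the core of the circadian clock, had 44.9 and 46.5 CPM in the BAT libraries numbered in the 500s and 3.94 to 9.61 CPM in the 4 others, with all 12 libraries scaled together. White fat showed the same split, at 37.5 and 41.2 CPM against 4.76 to 11.4 CPM. Its libraries of the 500s carry the same numbers as those of BAT, 538 in WT-NC and 539 in KI-HFD. Whether they come from the same animals is not given, so the split in white fat cannot be counted as independent. Dbp, a clock output gene that peaks at another time of day, ran the other way, at 4 and 5.91 CPM in BAT libraries of the 500s and 46.7 to 69.2 CPM in those of the 200s. Per2 had 7.26 to 8.61 CPM in the 500s and 27.6 to 55.3 CPM in the 200s of BAT. Per3 and Ciart were also lower in the 500s of BAT without overlap, and Npas2 was higher without overlap. All of these split in white fat too. Not every clock gene split in BAT. Per1 had 1.72 to 8.70 CPM in the 500s and 8.33 to 22.4 CPM in the 200s of BAT, which overlap, and Clock itself lay between 32.8 and 41.7 CPM in all 6 libraries. Because both groups hold 1 library of the 500s and 2 of the 200s, the groups can be compared within each number series. Counts made in this way are given below for several metabolic lists, the brown adipocyte list and the adrenergic list.

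Of 15726 genes tested, 7 fell in KI-HFD brown fat and 0 rose at an adjusted p of 0.05. These are 0.0445% and 0% of the genes tested. All tests are edgeR quasi-likelihood F tests with Benjamini-Hochberg adjustment over all genes, and each fold change is the log2 of the KI-HFD level divided by the WT-NC level, with its standard error (SE). At an unadjusted p of 0.05, 748 genes were lower and 496 higher in KI-HFD. The 7 genes are Ccl7, Spp1, Gdf15, Ccl2, Adam8, Rgs1 and Ccl9, and each had an adjusted p of 0.0466. Of the 7, Ccl2, Ccl7 and Ccl9 encode CC chemokines, small proteins that attract leukocytes.

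Ccl2, the main attractant of monocytes, had 0.837, 2.06 and 2.04 CPM in KI-HFD libraries, against 16.3, 18.9 and 17.8 CPM in WT-NC libraries. It fell by 3.42 on the log2 scale (SE 0.384). Ccl7, its neighbour on chromosome 11 and a ligand of the same receptor, had 1.06, 1.86 and 1.65 CPM in KI-HFD libraries, against 11.5, 15.2 and 15.7 CPM in WT-NC libraries. Ccl9, a chemokine that mice have and humans lack, had 5.58, 7.48 and 5.94 CPM in KI-HFD libraries, against 25.9, 46.9 and 50.8 CPM in WT-NC libraries. In all 3 chemokine genes every KI-HFD library lay below every WT-NC library.

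Gdf15 encodes a hormone that stressed cells secrete and that lowers appetite through a receptor in the hindbrain. It had 2.62, 1.61 and 2.59 CPM in KI-HFD libraries, against 14.1, 20.6 and 22.3 CPM in WT-NC libraries, and fell by 3.06 (SE 0.33). Spp1 encodes osteopontin, a secreted protein of macrophages that take up lipid. It had 0.67, 1.05 and 0.825 CPM in KI-HFD libraries, against 10.7, 7 and 11.1 CPM in WT-NC libraries. Adam8, a membrane metalloprotease of leukocytes, had 1.12, 2.26 and 2.42 CPM in KI-HFD libraries, against 19.3, 18.6 and 33.9 CPM in WT-NC libraries. Rgs1, which damps the signals of chemokine receptors, had 0.391, 0.151 and 0.385 CPM in KI-HFD libraries, against 7.94, 6.14 and 4.86 CPM in WT-NC libraries. Of the 7, Rgs1 fell by 4.34 on the log2 scale (SE 0.496), the steepest decline, and Ccl9 fell by 2.70 (SE 0.311), the shallowest.

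The promoters of 4 of the 7 genes (Spp1, Gdf15, Adam8 and Ccl9) were found in the RefSeq table for GRCm38.p6, each as 250 bases before and 50 after an annotated start. A pair of them is shown because both genes fell and both hold letters that leukocyte or inducible promoters often carry. Capitals mark matches to TGANTCA (the AP-1 motif, searched on both strands), GAGGAAGT (an ETS motif of the macrophage factor PU.1, both strands) and TATAAA (the TATA box, given strand). No match overlaps another.
Spp1, chr5:104434861-104435160, plus strand: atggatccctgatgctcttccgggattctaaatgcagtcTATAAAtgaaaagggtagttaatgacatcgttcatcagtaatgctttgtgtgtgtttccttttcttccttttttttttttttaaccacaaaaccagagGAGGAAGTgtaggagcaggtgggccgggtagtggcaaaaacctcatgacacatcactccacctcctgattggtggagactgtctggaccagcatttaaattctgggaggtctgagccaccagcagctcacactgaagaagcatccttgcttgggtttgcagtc
Ccl9, chr11:83578587-83578886, minus strand: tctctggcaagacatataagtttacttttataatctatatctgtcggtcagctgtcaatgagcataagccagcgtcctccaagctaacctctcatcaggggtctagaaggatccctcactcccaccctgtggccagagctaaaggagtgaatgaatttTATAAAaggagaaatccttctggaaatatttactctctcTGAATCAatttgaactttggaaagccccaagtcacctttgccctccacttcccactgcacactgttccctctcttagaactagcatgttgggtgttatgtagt
The Spp1 window shown holds the PU.1 motif 113 bases before the start and a TATA box 211 bases before it, and the Ccl9 window an AP-1 motif 53 bases and a TATA box 92 bases before its start. Over all 32851 promoters of this length in the table, 7.81% hold the AP-1 letters, 3.20% the PU.1 letters and 8.32% the TATA letters. The other Spp1 window in the table, at another start, and the windows of Adam8 and Gdf15 hold none of these 3 motifs. CACGTG, the E-box, was also searched on both strands and occurs in 1 of the Gdf15 windows and in 7.15% of all promoters. A match is a run of letters and not a measured binding site.

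**Figure D1:**
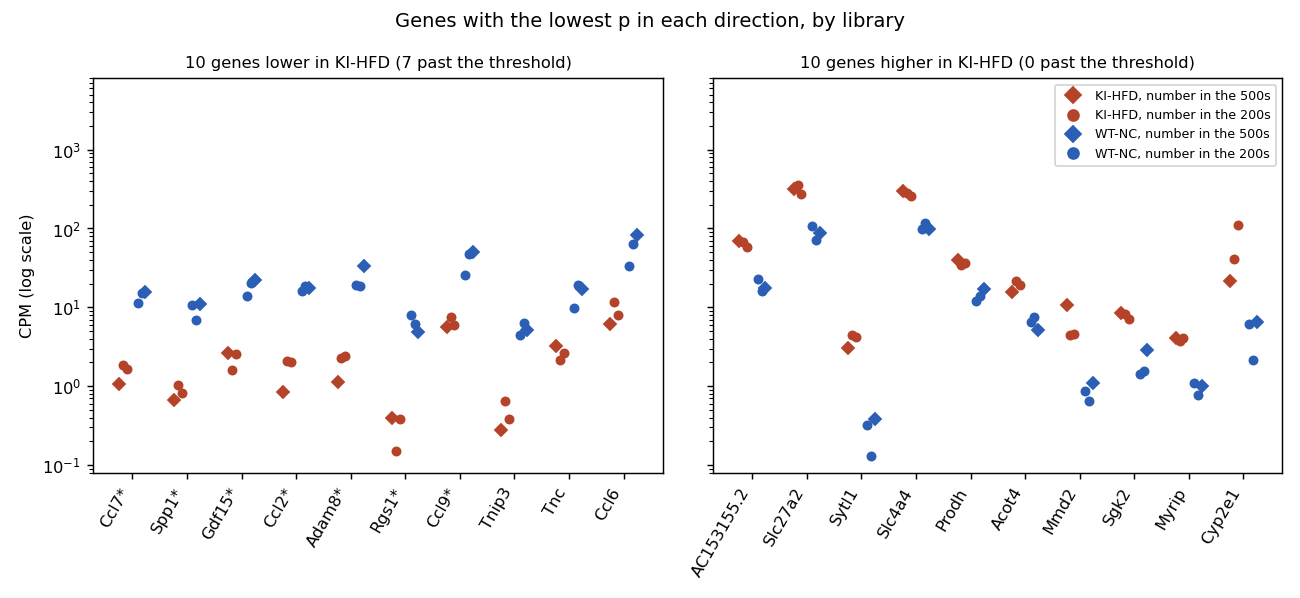
CPM on a log axis for the 10 genes with the lowest p in each direction (mean of at least 2 CPM, groups not overlapping), 1 point per library, with KI-HFD in red left of WT-NC in blue and diamonds for the libraries numbered in the 500s. Asterisks mark the 7 genes with an adjusted p of 0.0466. All KI-HFD points of Ccl2 lie at 2.06 CPM or below and all its WT-NC points at 16.3 CPM or above.

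Next in rank among the lower genes, and not past the threshold, were Tnip3, Tnc and Ccl6. Tnip3, an inhibitor of NF-kappaB signalling, had a log2 fold change of -3.57 (SE 0.463, adjusted p = 0.0785), with 0.279, 0.653 and 0.385 CPM in KI-HFD libraries and 4.46, 6.31 and 5.12 CPM in WT-NC libraries. Tnc, the matrix glycoprotein tenascin-C of injured tissue, had -2.51 (SE 0.348, adjusted p = 0.0983). Ccl6, a chemokine that is also made by macrophages, had -2.78 (SE 0.388, adjusted p = 0.0983). DESeq2 called 178 of the genes tested lower (1.13%) and 59 higher (0.375%). The authors' deposited table gives 186 genes as lower and 61 as higher at an adjusted p of 0.05, the 7 genes above among the lower ones, and Mmp12 ranks at the top with a log2 fold change of -3.59. In the counts Mmp12, the macrophage elastase, had 0.67, 4.27 and 3.30 CPM in KI-HFD libraries and 39.2, 80.4 and 120 CPM in WT-NC libraries. Its edgeR log2 fold change was -4.85 (SE 0.686), further from 0 than the deposited value, but the edgeR adjusted p was 0.0983. Tph2, an enzyme of serotonin synthesis, was picked here after its values were seen. It had 0.0558, 0.1 and 0.220 CPM in KI-HFD libraries and 5.66, 2.03 and 24 CPM in WT-NC libraries, with an edgeR adjusted p of 0.212.

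**Figure D2:**
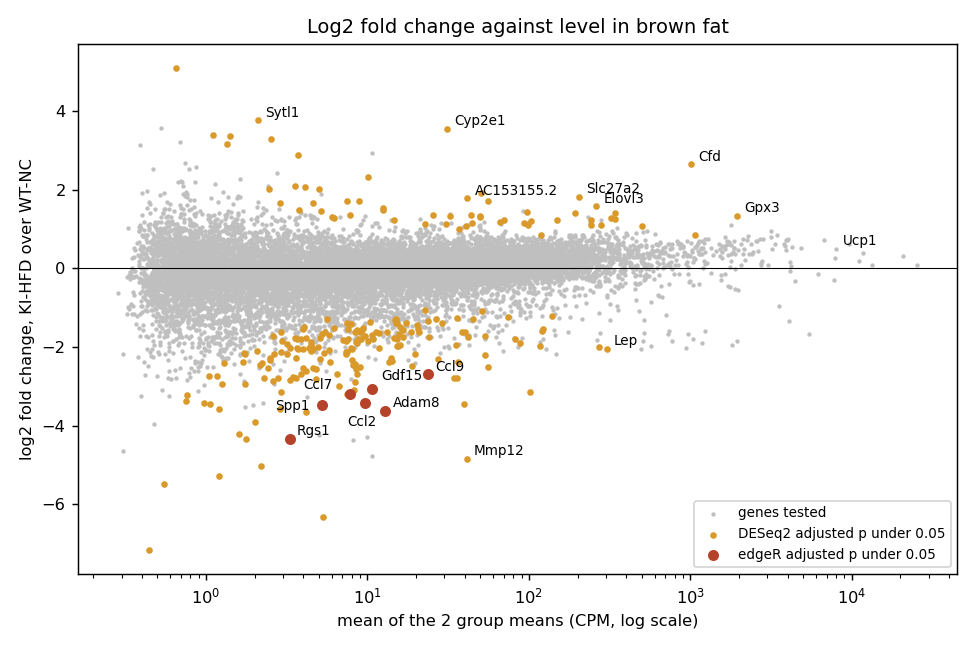
Log2 fold change of KI-HFD over WT-NC against the mean level in CPM (log axis) for the 15726 genes tested, with genes past the edgeR threshold in red and past the DESeq2 threshold in orange. The 7 red points lie between -4.34 and -2.70, and the orange points above 0 (59 genes) are fewer than those below 0 (178 genes).

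Across all genes tested, 6.62% had every KI-HFD library below every WT-NC library and 6.68% had the reverse, and 50.5% had a fold change above 0. Scaled by library totals in place of TMM, the median of all genes moved to -0.14 and these groups of genes numbered 1588 lower and 579 higher, against 1041 and 1050. Within each number series taken by itself, 10.7% of genes had all KI-HFD values below and 16.6% had all above. These shares are the yardstick for the gene lists that follow. In bulk tissue, fewer cells of a type and less RNA per cell cannot be told apart.

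Macrophage genes were low in KI-HFD brown fat. Of 22 tested genes that macrophages and monocytes share, 21 had a fold change below 0, 12 had groups that did not overlap, and the median was -1.63 on the log2 scale, while 0 passed the threshold. The list summed to 276, 311 and 400 CPM in KI-HFD libraries and to 498, 1090 and 1890 CPM in WT-NC libraries, so the groups did not overlap although WT-NC replicate 3 stood far above replicate 1. Without WT-NC replicate 3 the median was -1.01. Cd68, a lysosomal glycoprotein of macrophages, had 7.82, 12.4 and 14.7 CPM in KI-HFD libraries and 33.8, 48.2 and 100 CPM in WT-NC libraries (log2 fold change -2.39, SE 0.44, adjusted p = 0.239). Ctss, a protease of antigen-presenting cells, had 12.2, 15.9 and 21.9 CPM in KI-HFD libraries and 57.4, 79.5 and 148 CPM in WT-NC libraries. Spi1, the gene for PU.1, had -1.73 (SE 0.36). The receptor genes Adgre1 and Csf1r overlapped between groups, since KI-HFD replicate 1 had 8.09 CPM of Adgre1 and WT-NC replicate 1 had 6.09.

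Among the genes of lipid-associated macrophages, 10 of 23 were lower with no overlap and 2 higher, and Spp1 passed the threshold. Trem2, the lipid receptor that defines these cells, had 1.00, 1.41 and 1.98 CPM in KI-HFD libraries and 7.34, 7.39 and 25.9 CPM in WT-NC libraries. Gpnmb, a glycoprotein of lipid-loaded phagocytes, had 4.63, 5.98 and 9.13 CPM in KI-HFD libraries and 33.6, 31.0 and 152 CPM in WT-NC libraries. Lgals3, a lectin secreted by activated macrophages, had 8.32, 16.4 and 37.5 CPM in KI-HFD libraries and 140, 154 and 256 CPM in WT-NC libraries. The adjusted p of Trem2, Gpnmb and Lgals3 lay between 0.219 and 0.252. Of the 23 members 15 had a fold change below 0 and 8 above 0, among the latter 3 that adipocytes also express. Lpl, which frees fatty acids from lipoproteins, had a log2 fold change of 0.48, Cd36, a fatty acid receptor, 0.08, and Plin2, a droplet coat protein, 0.03, all 3 named after their values were seen, and the values of Cd36 and Plin2 turned below 0 when scaled by library totals. The median of the list was -1.16, and -0.56 without WT-NC replicate 3. Resident macrophages of fat gave a median of -1.54 with 18 of 18 members below 0 and 9 without overlap. Retnla, a gene of alternatively activated macrophages, had 9.43, 13.1 and 4.51 CPM in KI-HFD libraries and 31.9, 127 and 29.2 CPM in WT-NC libraries. Mrc1, the mannose receptor, overlapped, at 9.60, 7.38 and 11.9 CPM in KI-HFD libraries and 6.96, 22.1 and 42.1 CPM in WT-NC libraries.

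CC chemokines had the lowest median of the 52 lists, at -2.02, with 3 of 14 members past the threshold and 8 lower with no overlap. The 14 genes and 5 untested ones summed to 49.6, 80.7 and 73.9 CPM in KI-HFD libraries and to 147, 254 and 246 CPM in WT-NC libraries. The receptors showed less of a shift. Ccr1, a receptor for Ccl7 and Ccl9 among others, had 0.112, 0.452 and 0.330 CPM in KI-HFD libraries and 2.07, 2.03 and 2 CPM in WT-NC libraries (log2 fold change -2.74, SE 0.60, adjusted p = 0.277). Ccr2, the receptor of Ccl2 on monocytes, overlapped, at 5.81, 8.34 and 13.3 CPM in KI-HFD libraries and 12.7, 12.7 and 18.3 CPM in WT-NC libraries. The 16 chemokine receptor genes had a median of -0.45, and of 0.07 among the 4 libraries numbered in the 200s. Cxcl1 and Cxcl2, which draw neutrophils, had log2 fold changes of -2.87 (SE 0.77) and -3.43 (SE 0.67), both without overlap and neither past the threshold, and Cxcl1 had -4.04 without KI-HFD replicate 3. The pan-macrophage sum was also lower in every KI-HFD library, and its part in the chemokine differences was not tested. The lipid-associated list, which holds abundant adipocyte genes, summed to 14400, 11800 and 11700 CPM in KI-HFD libraries and to 9320, 8510 and 16500 CPM in WT-NC libraries, with overlap.

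Other immune lists had medians nearer to 0 than the CC chemokines, without a test between lists. Complement genes had a median of -1.03, with 4 of 16 lower with no overlap, and Cfd as the exception described below. Class II antigen presentation genes had a median of -0.98 with 0 of 11 separating the groups, and -0.34 without WT-NC replicate 3, in which Cd74, the class II chaperone, had 858 CPM. Interferon response genes had a median of -0.49, with 20 of 22 below 0 and 4 lower with no overlap, among them Oasl2, an antiviral enzyme homologue (log2 fold change -0.91, SE 0.29). Of 20 cytokine and acute phase genes 6 were lower with no overlap. Saa3, an acute phase protein of inflamed fat, had 0, 0.0502 and 0.330 CPM in KI-HFD libraries and 2.50, 1.38 and 8.91 CPM in WT-NC libraries (log2 fold change -5.02, SE 1.12, adjusted p = 0.281). That value was -7.05 without KI-HFD replicate 3 and -3.87 without WT-NC replicate 3. Lcn2, lipocalin-2, had 0.279, 1.66 and 1.16 CPM in KI-HFD libraries and 8.05, 5.01 and 6.95 CPM in WT-NC libraries (log2 fold change -2.68, SE 0.588, adjusted p = 0.277). Il1b, by contrast, had 1.34, 0.753 and 1.16 CPM in KI-HFD libraries and 0.761, 1.30 and 0.980 CPM in WT-NC libraries, with full overlap. Genes of T and natural killer cells (median -0.62), of B and plasma cells (-0.88) and of neutrophils and mast cells (-0.81) were sparse. In the last of these, 1 of 10 tested genes was higher and 1 lower with no overlap, against 6.68% and 6.62% of all genes. Hdc, which makes histamine, was higher, at 8.37, 10.7 and 9.02 CPM in KI-HFD libraries and 6.09, 4.15 and 3.71 CPM in WT-NC libraries. S100a8 was lower, at 0.279, 0.653 and 0.99 CPM in KI-HFD libraries and 1.47, 1.86 and 1.62 CPM in WT-NC libraries.

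Matrix and growth genes lay mostly below 0. All 32 collagen and matrix genes had a negative fold change (median -0.95, 8 lower with no overlap, 0 past the threshold), and the median was -0.47 without WT-NC replicate 3. Col1a1, the chain of type I collagen, had 45.0, 44.0 and 46.4 CPM in KI-HFD libraries and 40.1, 83.4 and 219 CPM in WT-NC libraries, which overlap. Col16a1, a minor fibril-associated collagen, did not, at 2.12, 3.72 and 3.41 CPM in KI-HFD libraries and 8.48, 11.2 and 13.3 CPM in WT-NC libraries. Timp1, an inhibitor of matrix metalloproteases, had a log2 fold change of -2.80 (SE 0.63, adjusted p = 0.284), and of -3.53 without KI-HFD replicate 3. Ccn2, a matricellular protein that TGF-beta and YAP raise, had -2.03 (SE 0.36, adjusted p = 0.229). Neither gene overlapped between the groups. Matrix proteases and their inhibitors had a median of -0.29, with 3 of 29 lower and 1 higher without overlap. TGF-beta, BMP and Wnt genes had a median of -0.63, with 7 of 29 lower and 3 higher without overlap. Across all genes these shares were 6.62% and 6.68%. Fibroblast and progenitor genes had a median of -0.86, with 3 of 17 lower and no overlap. Pdgfra, the receptor that marks these cells, overlapped at 9.49, 14.8 and 12.4 CPM in KI-HFD libraries and 7.29, 22.0 and 17 CPM in WT-NC libraries. All 23 cell cycle genes were below 0 (median -0.92, 7 without overlap, 0 past the threshold). Cenpe, a motor protein of dividing chromosomes, had 0.726, 1.21 and 1.43 CPM in KI-HFD libraries and 3.48, 3.07 and 3.20 CPM in WT-NC libraries. Mki67 overlapped, because KI-HFD replicate 3 had 10.7 CPM and the WT-NC libraries 7.56, 9.60 and 6.95. Endothelial and pericyte genes had medians of -0.16 and -0.24.

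**Figure D3:**
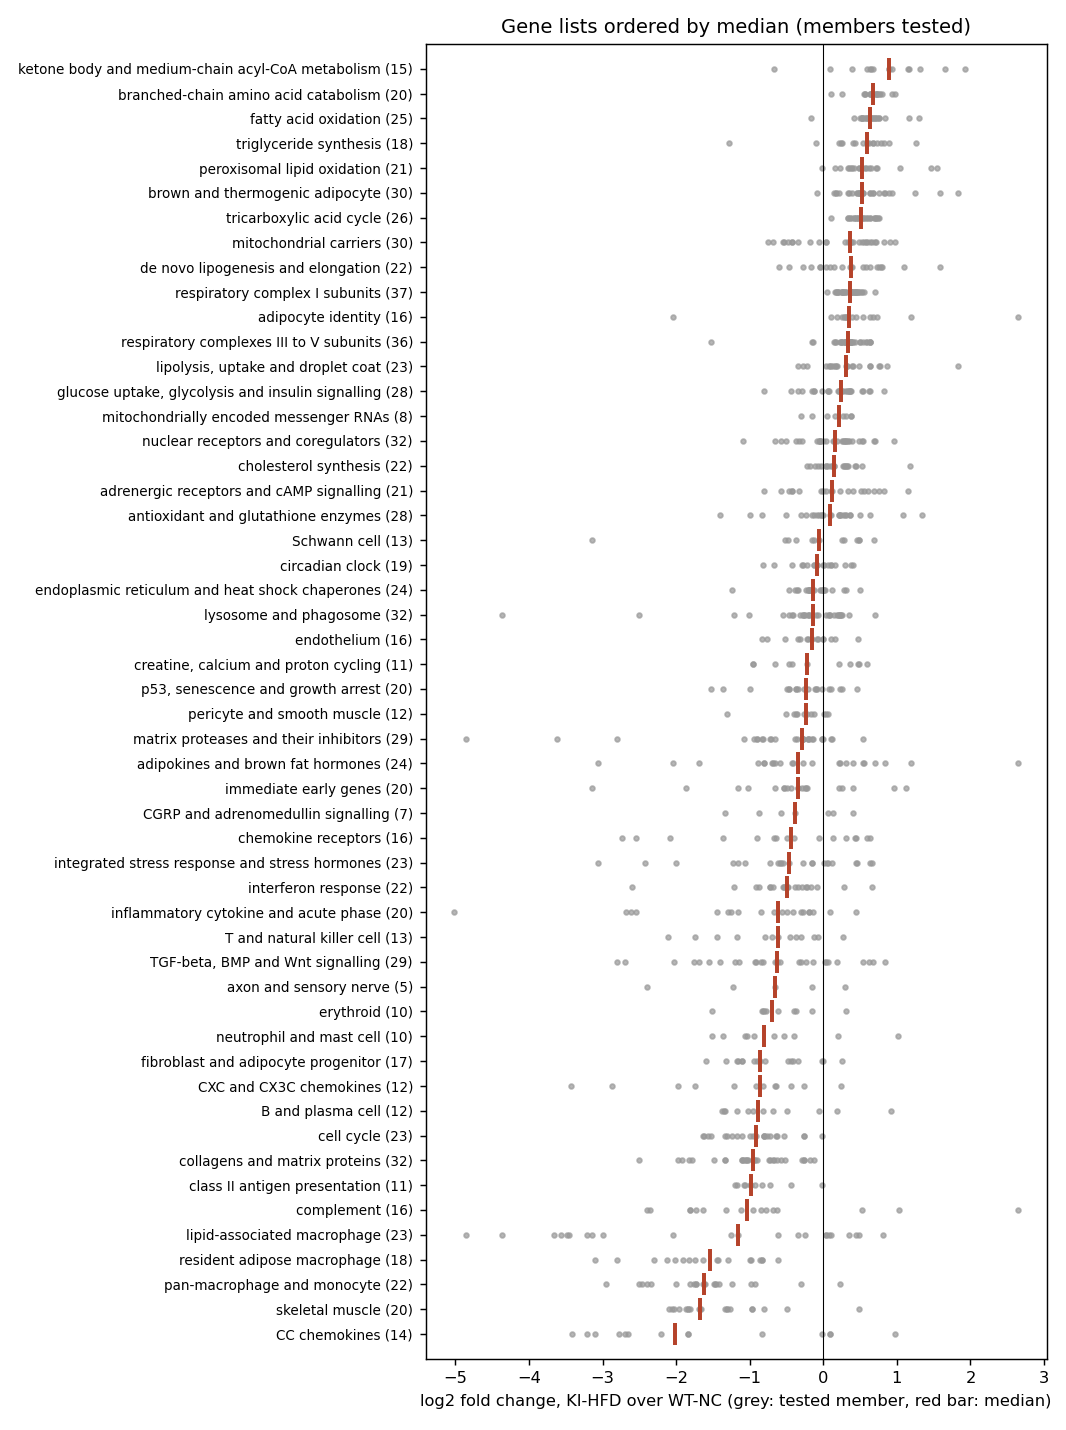
Log2 fold change of KI-HFD over WT-NC for the tested members of 52 gene lists, ordered by median, with each member in grey, the median as a red bar and the number tested in parentheses. Medians run from -2.02 for CC chemokines to 0.89 for ketone body and medium-chain acyl-CoA metabolism.

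Stress genes were mixed apart from Gdf15. Among 23 genes of the integrated stress response, 4 were lower and 2 higher with no overlap, against 6.62% and 6.68% of all genes (median -0.47). The share of higher genes was thus near that of all genes. Atf3, a stress-induced transcription factor, had 8.37, 7.18 and 11.9 CPM in KI-HFD libraries and 12.2, 16.6 and 32.7 CPM in WT-NC libraries (log2 fold change -1.16, SE 0.40, adjusted p = 0.507). Chac1, a glutathione-degrading target of Atf4, had 2.34, 4.37 and 1.16 CPM in KI-HFD libraries and 8.81, 29.7 and 4.01 CPM in WT-NC libraries. Vldlr, a lipoprotein receptor that Atf4 also raises, was higher with no overlap, at 260, 202 and 175 CPM in KI-HFD libraries and 116, 155 and 139 CPM in WT-NC libraries. Fgf21, the other stress hormone of brown fat, overlapped, with 1.56, 2.96 and 2.31 CPM in KI-HFD libraries and 3.05, 2.25 and 5.03 CPM in WT-NC libraries. Chaperone genes of the endoplasmic reticulum gave a median of -0.14, and of 0.08 without WT-NC replicate 3. Of these 24 genes 1 was lower without overlap, a share near that of all genes. Among 20 p53 and senescence genes 4 were lower with no overlap, against 6.62% of all genes. Of 20 immediate early genes 6 were lower and 1 higher with no overlap, against 6.62% and 6.68% of all genes, and the median was -0.35. Fos was among the lower ones, at 8.93, 1.66 and 12.3 CPM in KI-HFD libraries and 42.3, 26.4 and 14.7 CPM in WT-NC libraries. Nr4a2, an orphan receptor that cAMP induces, was the higher one, at 14.3, 13.9 and 9.24 CPM in KI-HFD libraries and 5.82, 5.27 and 6.18 CPM in WT-NC libraries. Hmox1, which degrades haem, had 15.6, 14.0 and 18.5 CPM in KI-HFD libraries and 32.5, 26.7 and 67.5 CPM in WT-NC libraries, while the secreted glutathione peroxidase Gpx3 had 3130, 2810 and 2400 CPM in KI-HFD libraries and 1070, 1030 and 1200 CPM in WT-NC libraries. Neither passed the edgeR threshold (adjusted p 0.36 and 0.284).

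No gene rose past the threshold, so the genes on the higher side are given as values. The smallest adjusted p among them was 0.0589, for the long non-coding RNA AC153155.2, with 68.4, 66.6 and 58.2 CPM in KI-HFD libraries and 22.8, 15.9 and 17.5 CPM in WT-NC libraries. Slc27a2, a fatty acid transporter that also activates very long chains, had 317, 361 and 273 CPM in KI-HFD libraries and 109, 71.0 and 88.0 CPM in WT-NC libraries (log2 fold change 1.83, SE 0.254, adjusted p = 0.0983). Sytl1, a Rab27 effector of vesicle transport, had 3.07, 4.42 and 4.18 CPM in KI-HFD libraries and 0.326, 0.130 and 0.384 CPM in WT-NC libraries (log2 fold change 3.77, SE 0.534, adjusted p = 0.0983). Slc4a4, a sodium bicarbonate cotransporter, had 302, 279 and 257 CPM in KI-HFD libraries and 99.1, 116 and 97.8 CPM in WT-NC libraries. In Slc4a4 the 3 libraries of each group lay close together, and its adjusted p was 0.134. Another long non-coding RNA, Gm10032 (chromosome 14, 66784480 to 66793758, plus strand, GRCm38), was picked after its values were seen and had 78.0, 104 and 74.9 CPM in KI-HFD libraries and 29.0, 23.0 and 26 CPM in WT-NC libraries (adjusted p = 0.0721). Its nearest neighbours are Dpysl2, 9106 bases away on the minus strand, and Adra1a, 13312 bases away on the plus strand.

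The next genes by rank include enzymes of amino acid and fatty acid breakdown. Prodh, which starts proline oxidation, had 39.4, 34.6 and 36.4 CPM in KI-HFD libraries and 12, 14.1 and 17.1 CPM in WT-NC libraries. Acot4, a peroxisomal thioesterase for dicarboxylic acyl-CoAs, had 15.7, 21.3 and 19.2 CPM in KI-HFD libraries and 6.58, 7.48 and 5.16 CPM in WT-NC libraries. Cyp2e1, a cytochrome P450 best known from liver, had 21.5, 40.9 and 110 CPM in KI-HFD libraries and 6.09, 2.16 and 6.44 CPM in WT-NC libraries, and its spread inside KI-HFD was wide. Mmd2, Sgk2 and Myrip, 3 genes of low level, had log2 fold changes of 2.89 (SE 0.49), 2.03 (SE 0.378) and 2.03 (SE 0.38). Adjusted p ran from 0.173 for Prodh to 0.240 for Cyp2e1. Glul, which makes glutamine and was named after its values were seen, had 365, 477 and 524 CPM in KI-HFD libraries and 209, 183 and 170 CPM in WT-NC libraries (adjusted p = 0.252).

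Genes of fuel oxidation lay above 0 as a block, and the number of genes that separated the groups turned on how the libraries were set against each other. Of 25 fatty acid oxidation genes 24 had a fold change above 0, with a median of 0.64. Only 4 separated the groups when all 6 libraries were pooled, but 24 of 25 were higher in KI-HFD within each number series, against 16.6% of all genes. The count within number series was chosen after the values were seen and has no test, and in the 500s it rests on 1 library a group. The list summed to 50800, 38800 and 28800 CPM in KI-HFD libraries and to 20000, 19300 and 37300 CPM in WT-NC libraries. KI-HFD replicate 1 and WT-NC replicate 3, the libraries of the 500s, were the highest of their groups. Cpt2, the inner carnitine palmitoyltransferase, had 1540 CPM in KI-HFD and 1220 CPM in WT-NC in the 500s, and 892 and 685 CPM in KI-HFD against 430 and 454 CPM in WT-NC in the 200s. Cpt1a, the form of the outer enzyme that liver uses, was the member that did not follow, with a log2 fold change of -0.17, and of 0.38 without WT-NC replicate 3. Without WT-NC replicate 3 the median of the list was 1.00.

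The citric acid cycle list behaved alike. All 26 genes were above 0 (median 0.51), 5 separated the pooled groups and 23 were higher within each number series. Cs, citrate synthase, had 3290 CPM in KI-HFD and 2630 CPM in WT-NC in the 500s, and 2100 and 1460 CPM in KI-HFD against 1190 and 1110 CPM in WT-NC in the 200s. The same count was 17 of 20 genes of branched-chain amino acid breakdown (median 0.68) and 17 of 21 genes of peroxisomal lipid oxidation (median 0.53). It was 12 of 15 genes of ketone body and medium-chain acyl-CoA use, which had the highest median of the 52 lists at 0.89. Acsm3, a medium-chain acyl-CoA synthetase, had 119, 71.4 and 51.5 CPM in KI-HFD libraries and 12.6, 11.2 and 39.6 CPM in WT-NC libraries (log2 fold change 1.93, SE 0.54, adjusted p = 0.392), and its log2 fold change was 2.78 without WT-NC replicate 3. Ehhadh, the bifunctional enzyme of peroxisomes, had 177, 148 and 78.7 CPM in KI-HFD libraries and 35.7, 27.4 and 83.4 CPM in WT-NC libraries. None of these lists held a gene past the edgeR threshold.

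**Figure D4:**
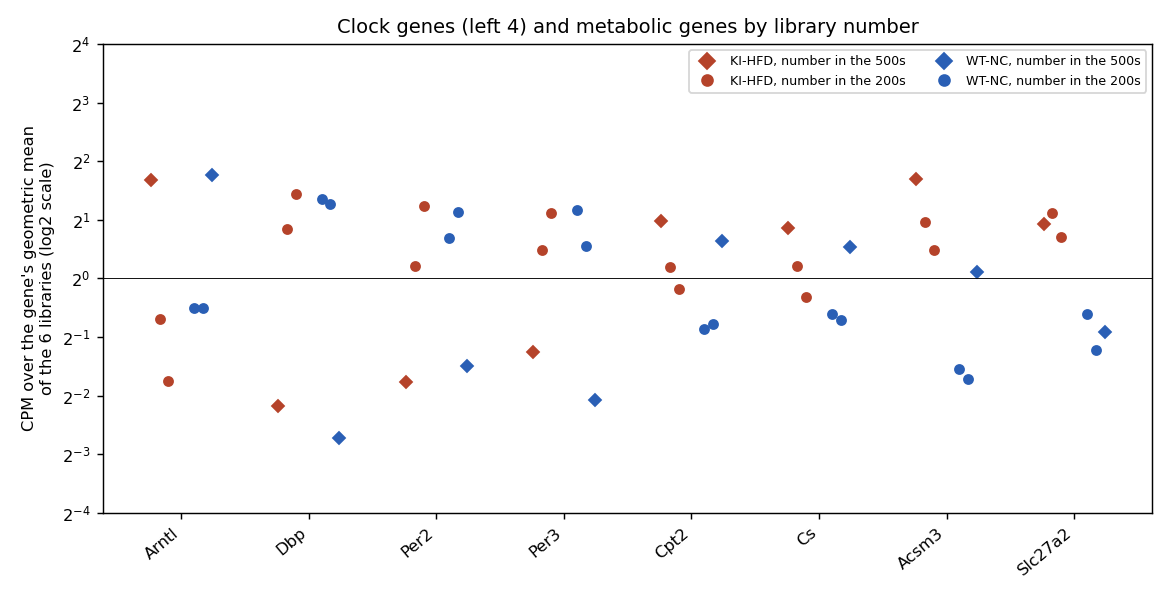
CPM of 4 clock genes and 4 metabolic genes, each divided by the gene's geometric mean over the 6 libraries (log2 axis), with KI-HFD in red left of WT-NC in blue and diamonds for libraries numbered in the 500s. The diamonds of both groups stand apart from the circles for Arntl and Dbp, and for Cpt2 and Cs each KI-HFD symbol lies above the WT-NC symbols of its own shape.

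Respiratory chain subunits had smaller shifts. All 37 complex I genes were above 0 with a median of 0.36, 6 separated the pooled groups and 20 were higher within each number series. Ndufv1, the subunit that binds NADH, had 2220, 2300 and 1740 CPM in KI-HFD libraries and 1210, 1250 and 1400 CPM in WT-NC libraries. Ndufa1, a small accessory subunit, ran the other way with the number series, at 334, 606 and 736 CPM in KI-HFD libraries and 638, 437 and 241 CPM in WT-NC libraries. Complexes III to V had a median of 0.33 with 6 of 36 separating the pooled groups and 18 higher within each number series, among them Uqcrc1 of complex III (4350, 4450 and 3390 CPM in KI-HFD libraries, 2460, 2350 and 3050 CPM in WT-NC libraries). The 8 tested genes of the mitochondrial genome had a median of 0.22 and none separated the groups, and without WT-NC replicate 3 their median was -0.03. The 5 other listed genes, mt-Co2, mt-Co3, mt-Atp6, mt-Atp8 and mt-Nd4l, had 2 counts or fewer in every library and were not tested. By contrast mt-Co1 had 6440 to 16100 CPM, and the reason for these low counts was not tested. Mitochondrial carriers had a median of 0.37, with 4 of 30 higher without overlap and 13 higher within each number series. Slc25a33, a pyrimidine nucleotide carrier, was higher with no overlap, at 71.5, 72.6 and 53.4 CPM in KI-HFD libraries and 25.4, 35.2 and 40.5 CPM in WT-NC libraries.

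Most thermogenic markers were higher in KI-HFD in level, but none passed the threshold and the list as a whole was not tested. Of 30 brown and thermogenic genes 29 were above 0 (median 0.53), 10 were higher with no overlap and 18 within each number series, and 0 passed the threshold. Ucp1 had 11400, 8380 and 8170 CPM in KI-HFD libraries and 6290, 5330 and 8080 CPM in WT-NC libraries. With TMM scaling the lowest KI-HFD library thus stood only just above the highest WT-NC one (log2 fold change 0.50, SE 0.39, adjusted p = 0.837). Cidea, a droplet protein of brown adipocytes, had 3000, 3700 and 3520 CPM in KI-HFD libraries and 2610, 1570 and 1860 CPM in WT-NC libraries. Elovl3, an elongase of active brown fat, had 444, 411 and 315 CPM in KI-HFD libraries and 56.6, 132 and 202 CPM in WT-NC libraries (log2 fold change 1.58, SE 0.44, adjusted p = 0.389). Kcnk3, a potassium channel of brown adipocytes, had 366, 376 and 281 CPM in KI-HFD libraries and 151, 118 and 165 CPM in WT-NC libraries. Ppargc1a, the coactivator of mitochondrial biogenesis, overlapped, at 111, 87.6 and 124 CPM in KI-HFD libraries and 101, 66.6 and 54.2 CPM in WT-NC libraries. General adipocyte genes lay on the same side, with 15 of 16 above 0 and a median of 0.35, and their part in these differences was not tested. Nuclear receptors gave a median of 0.17, with Esrra, which drives oxidative genes, at 148, 116 and 104 CPM in KI-HFD libraries and 75.4, 85.1 and 94.4 CPM in WT-NC libraries.

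**Figure D5:**
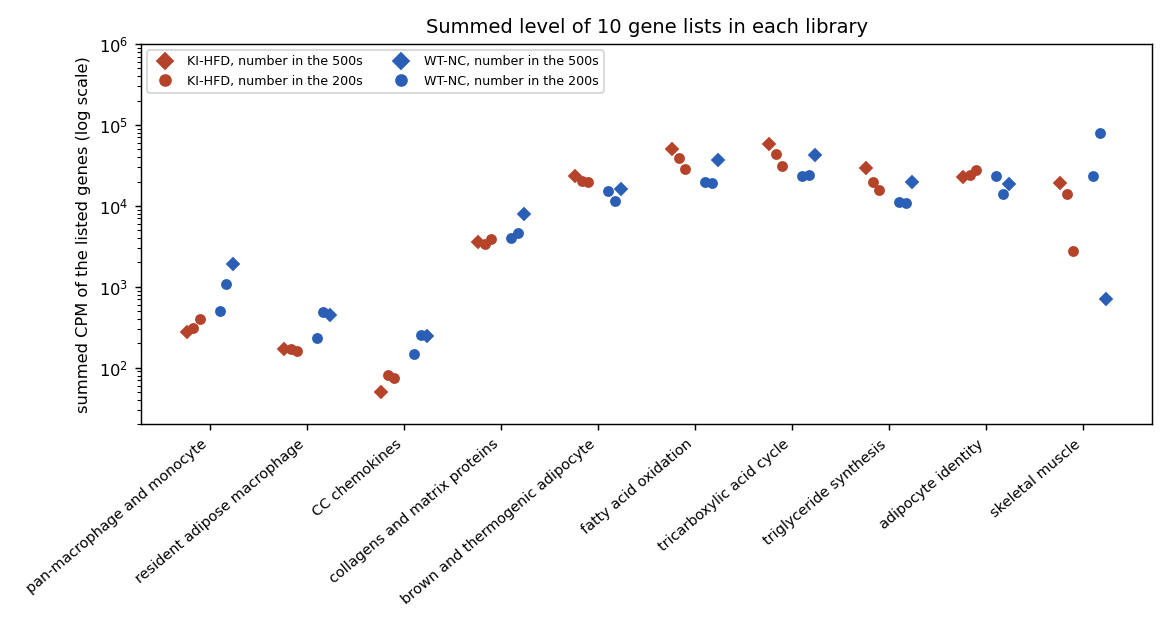
Summed CPM of 10 gene lists in each BAT library on a log axis, with KI-HFD in red left of WT-NC in blue and diamonds for libraries numbered in the 500s. The 3 KI-HFD libraries lie below all WT-NC libraries for the pan-macrophage and resident macrophage lists, CC chemokines and collagens and above them for the brown adipocyte list, while the muscle list spans 717 to 79600 CPM in WT-NC alone.

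Most genes that take up, store and make lipid also lay above 0. Triglyceride synthesis genes had a median of 0.59, with 6 of 18 higher without overlap and 14 higher within each number series. Gpat4, which adds the first acyl chain, had 639, 480 and 332 CPM in KI-HFD libraries and 144, 170 and 292 CPM in WT-NC libraries. Agpat2, which adds the second, had 3420, 2760 and 2490 CPM in KI-HFD libraries and 1360, 1360 and 2170 CPM in WT-NC libraries. De novo lipogenesis had a median of 0.37, with 4 of 22 higher without overlap and 9 within each number series. Acacb, the acetyl-CoA carboxylase at mitochondria, had 866, 682 and 497 CPM in KI-HFD libraries and 305, 298 and 358 CPM in WT-NC libraries, and Elovl6, which elongates palmitate, 513, 551 and 415 CPM in KI-HFD libraries and 298, 234 and 327 CPM in WT-NC libraries. Acly, which supplies cytosolic acetyl-CoA, split by number series, with 3560 and 2970 CPM in the KI-HFD and WT-NC libraries of the 500s and 833 to 1600 CPM in the 4 of the 200s. Pnpla2, the first lipase of lipolysis, had 5470, 4560 and 3240 CPM in KI-HFD libraries and 1920, 1890 and 3520 CPM in WT-NC libraries. The insulin-responsive glucose transporter Slc2a4 overlapped, at 793, 491 and 346 CPM in KI-HFD libraries and 331, 335 and 459 CPM in WT-NC libraries. Cholesterol synthesis genes had a median of 0.14, which turned to -0.01 with library totals and to -0.04 without KI-HFD replicate 1, and Fdft1, squalene synthase, was higher without overlap, at 108, 103 and 66.3 CPM in KI-HFD libraries and 36.1, 42.4 and 44.1 CPM in WT-NC libraries.

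Secreted products of fat cells lay on both sides of 0, and none but Gdf15 passed the threshold. Lep, the gene for leptin, which follows fat mass, had 149, 65.1 and 144 CPM in KI-HFD libraries and 280, 168 and 1020 CPM in WT-NC libraries (log2 fold change -2.04, SE 0.67, adjusted p = 0.491), so every KI-HFD library was lower, but without WT-NC replicate 3 the log2 fold change was -0.90. Cfd, adipsin, which activates the alternative complement pathway, had 1150, 1100 and 2980 CPM in KI-HFD libraries and 445, 204 and 181 CPM in WT-NC libraries. Its log2 fold change of 2.65 (SE 0.55) had an edgeR adjusted p of 0.268 and a DESeq2 adjusted p of 2.17e-06, and was 2.03 without KI-HFD replicate 3. In obese mice Lep is known to be high and Cfd low, so both lay on the opposite side in the group labelled with the high-fat diet, as did the macrophage genes. No body weight or other check of that label was used here. Genotype changes together with diet between these groups, and the reason for these directions was not tested. Adipoq, adiponectin, had 1120, 1240 and 1490 CPM in KI-HFD libraries and 979, 653 and 1010 CPM in WT-NC libraries. Sfrp5, a Wnt inhibitor from fat, was lower without overlap, at 0.893, 2.81 and 3.30 CPM in KI-HFD libraries and 5.76, 5.10 and 11.8 CPM in WT-NC libraries. Retn, resistin, overlapped between the groups.

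Few nerve genes were measurable at this depth. Of 19 axon and sensory nerve genes 5 had enough counts to be tested and 14 did not, Calca among them. The RNA of a nerve lies mostly in its cell body, outside the tissue. Uchl1, a neuronal ubiquitin hydrolase that other cells also make, was lower without overlap, at 0.167, 0.402 and 0.660 CPM in KI-HFD libraries and 2.01, 2.90 and 1.66 CPM in WT-NC libraries (adjusted p = 0.354). Schwann cell genes had a median of -0.06, and of 0.42 without WT-NC replicate 2. The receptor for CGRP pairs Calcrl with Ramp1. Calcrl had 16.4, 17.2 and 12.9 CPM in KI-HFD libraries and 13.4, 32.9 and 14.2 CPM in WT-NC libraries, and Ramp1 10.6, 8.39 and 2.64 CPM in KI-HFD libraries and 16.1, 35.6 and 3.11 CPM in WT-NC libraries, both with overlap. Ramp1 was highest in WT-NC replicate 2, which also held the most muscle transcripts. Adm, adrenomedullin, a ligand of the same receptor family, was lower without overlap, at 6.14, 5.93 and 11.4 CPM in KI-HFD libraries and 12.5, 11.9 and 18.8 CPM in WT-NC libraries (adjusted p = 0.585). On the sympathetic side Adrb3, the main beta-adrenergic receptor of fat, had 605, 456 and 411 CPM in KI-HFD libraries and 508, 385 and 605 CPM in WT-NC libraries, a log2 fold change of -0.03 (SE 0.29) whose sign changed when single libraries were left out. Over the 21 tested adrenergic and cAMP genes the median was 0.12, and -0.03 with library totals. In the pooled groups 1 lower and 2 higher genes had no overlap, a share near that of all genes. Within each number series 8 were higher and 3 lower, against 16.6% and 10.7% of all genes. Gnas, which encodes the G protein that raises cAMP, was among the 2 higher in the pooled groups. It had 53.2, 40.8 and 49.2 CPM in KI-HFD libraries and 37, 23.9 and 32.9 CPM in WT-NC libraries. The phosphodiesterases that degrade cAMP differed in direction. Pde4b had 44.6, 36.8 and 52.3 CPM in KI-HFD libraries and 74.9, 68.8 and 54.8 CPM in WT-NC libraries, without overlap, while Pde3b had 325, 209 and 156 CPM in KI-HFD libraries and 106, 89.6 and 192 CPM in WT-NC libraries, with overlap.

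The 7 calls lie close to the threshold. With the number series as a covariate 0 genes passed (smallest adjusted p 0.0805), and leaving out any 1 library left 0 to 2 calls, none of them among the 7. The 7 fold changes stayed below 0 in all 17 alternatives, between -4.70 and -2.44.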

How the data were processed

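Poly-A RNA of brown and inguinal fat was sequenced single-end without strand information, per the labels. The authors deposited whole-number read counts per gene and library, and per the submitters' processing notes FastQC, STAR, HTSeq and DESeq2 were used with GRCm38.p5. Without strand, reads of overlapping antisense genes cannot be told apart. The authors' deposited table also gives log2 fold changes, p-values and adjusted p-values, quoted only where named, beside mean signal per gene and a Wald score that the authors computed and that are not used here.

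From the counts, rows that name no gene were dropped. In the BAT libraries 4.99% to 11.6% of reads had no feature and 22.7% to 31.6% had no unique alignment. The 6 BAT libraries were tested with edgeR 4.0.16 (quasi-likelihood, R 4.3.3) after TMM scaling, for genes that filterByExpr kept at a minimum count of 10, with Benjamini-Hochberg adjustment at a threshold of 0.05 and no covariate. DESeq2 1.42.0 and limma-voom 3.58.1 were alternatives, with other scalings, filters, fits and left-out libraries. The fit was tested on simulated data. Names come from GENCODE M21 and promoters from RefSeq (GRCm38.p6).

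The series states n = 3 per group. No label describes each replicate's animal, so p-values measure the spread between these libraries. The comparison and gene lists were chosen with earlier results of these data known. Named genes are those past the threshold, the 10 with the lowest p in each direction (mean of at least 2 CPM, no overlap, no predicted-gene symbol), and of each list the first 3 tested members and the 3 with the lowest p. Others are said to be chosen after their values were seen, apart from clock genes, which describe the libraries. Counts within number series were added after seeing the data.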

Additional observations from a re-analysis of the deposited data

How the results depend on the processing

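The count of 7 calls was sensitive to most choices. It was 0 with RLE size factors, library totals, a minimum count of 50, limma-voom (smallest adjusted p 0.14), the number series as a covariate and all 12 libraries in 1 fit, and 1 among the libraries of the 200s. It was 207 with no filter beyond 1 count and 244 with DESeq2, each including the 7, and 0 to 2 when single libraries were left out. The replicate numbers did not pair the libraries (correlations of -0.272, 0.265 and 0.12), and the replicate block gave 11 calls, 5 of them shared. Genes without overlap numbered 1588 lower and 579 higher with library totals, 3151 and 3404 in the 200s, 1685 and 2616 within each number series, and 1446 to 2444 and 1390 to 2676 without single libraries. The cause was not tested, apart from fewer libraries making separation easier by construction. Of 52 list medians, 41 kept their sign in every setting that gave a value. The 11 others were the lists of chemokine receptors, lysosome, chaperones, antioxidant enzymes, clock, mitochondrial messenger RNAs, cholesterol synthesis, creatine cycling, Schwann cells, CGRP signalling (0.09 without WT-NC replicate 2) and adrenergic signalling. The T and natural killer cell list gave none at a minimum count of 50, where no member was left.

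Of 102 named genes carried through these settings, 13 changed sign in some setting. With single libraries left out, log2 fold changes ran from -0.36 to 1.26 for Acly, -0.21 to 0.15 for Adrb3, -1.81 to 0.98 for Arntl, -0.65 to 0.17 for Calcrl, -0.15 to 0.46 for Cd36 and -0.49 to 0.38 for Cpt1a. They ran from -0.75 to 0.40 for Dbp, -0.11 to 0.31 for Il1b, -0.71 to 0.01 for Pdgfra, -1.55 to 0.08 for Per1, -0.18 to 0.47 for Plin2 and -0.07 to 0.06 for Clock. Library totals gave -0.07 for Cd36, -0.06 for Il1b and -0.12 for Plin2. The 200s gave 0.32 for Cpt1a, 0 for Fgf21 and -0.12 for Il1b. Dbp was 0.10 with limma-voom and 0.06 with the covariate, Clock lay between 0 and 0.02 with the replicate block (0.01), limma-voom (0.01), the covariate (0) and all 12 libraries (0.02), and Plin2 was 0 with no filter and -0.02 at a minimum count of 50. Of 19 nerve genes, 14 had too few counts to test at this depth.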
